A study of Mus musculus with 8 samples.

Results

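The enzymes of the tricarboxylic acid (TCA) cycle were followed through 9 genes: Cs, Idh2, Idh3a, Idh3b, Idh3g, Ogdh, Sdha, Sdhb and Mdh2. The list was given, and a spot was taken for a gene where its symbol was the only one annotated to that spot, which gave 9 spots of 18179 with 1 symbol, or 9 genes of 13661. Each gene therefore rests on 1 oligonucleotide, and no second spot annotated to any of them alone was there to compare. The 87 spots with several symbols and the 15334 without a listed gene were not searched for them. Whole hearts came from C57Bl/6 mice, 8 to 10 weeks old, with no allele or transgene named in the labels. In 4 infarcted mice the left coronary artery was permanently ligated at its descending branch, and in 4 sham control mice the thread was placed but left untied, after the same anaesthesia with ketamine and xylazine. No source used here gives the time from surgery to collection. All 8 arrays carried 30 µg of heart RNA in red against a pooled reference RNA of several adult mouse tissues in green.

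The TCA cycle burns acetyl groups from fatty acids, sugars and amino acids in the mitochondrial matrix and hands the electrons to the respiratory chain. Heart muscle, dense in mitochondria, draws most of its ATP from this route. Citrate synthase (Cs) lets acetyl-CoA enter, the isocitrate dehydrogenases (Idh2, Idh3a, Idh3b, Idh3g) and 2-oxoglutarate dehydrogenase (Ogdh) carry out the oxidative decarboxylations, succinate dehydrogenase (Sdha, Sdhb) is also complex II of the chain, and malate dehydrogenase (Mdh2) closes the cycle.

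The promoters of 3 of these genes are shown because they belong to Mdh2, which had the smallest p of the group, to Idh2, which had the largest difference, and to Ogdh, which alone held the motif of NRF1, a factor known for its control of nuclear genes of mitochondria. Each runs 5′ to 3′ on the strand of the gene, and covers 300 bases around a RefSeq transcript start in build GRCm38.p6. Capitals mark the Sp1 letters GGGCGG, or CCGCCC where they lie on the other strand, in Mdh2 and Idh2, and the NRF1 letters GCGCATGCG in Ogdh.
Mdh2 (chr5:135778399-135778698, plus strand): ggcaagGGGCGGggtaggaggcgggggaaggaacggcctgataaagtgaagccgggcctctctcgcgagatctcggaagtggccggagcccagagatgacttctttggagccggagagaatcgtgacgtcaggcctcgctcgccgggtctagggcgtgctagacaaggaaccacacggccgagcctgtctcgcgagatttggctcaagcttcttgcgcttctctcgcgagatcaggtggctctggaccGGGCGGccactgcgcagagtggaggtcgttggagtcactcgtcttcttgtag
Idh2 (chr7:80115301-80115600, minus strand): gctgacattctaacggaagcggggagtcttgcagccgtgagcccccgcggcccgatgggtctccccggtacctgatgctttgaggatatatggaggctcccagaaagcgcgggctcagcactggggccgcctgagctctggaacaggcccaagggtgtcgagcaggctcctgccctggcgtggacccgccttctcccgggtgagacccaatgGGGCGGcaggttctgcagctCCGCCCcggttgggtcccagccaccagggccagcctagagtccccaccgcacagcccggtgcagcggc
Ogdh (chr11:6292308-6292607, plus strand): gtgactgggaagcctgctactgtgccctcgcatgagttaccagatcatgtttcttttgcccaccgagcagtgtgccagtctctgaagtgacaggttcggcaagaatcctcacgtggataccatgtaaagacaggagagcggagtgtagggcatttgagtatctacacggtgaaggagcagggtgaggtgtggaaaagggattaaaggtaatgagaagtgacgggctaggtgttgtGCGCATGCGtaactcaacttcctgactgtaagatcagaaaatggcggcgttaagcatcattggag
RefSeq windows were matched for 8 of the 9 genes, 13 windows in all because Ogdh had 6 starts, and 4 motifs were searched on both strands. The Sp1 letters were in 8 of the 13 windows, belonging to Cs, Idh2, Mdh2, Ogdh and Sdhb, and in 35.7% of 32851 windows of all genes. The NRF1 letters were in 2 overlapping Ogdh windows, and in 1.75% of all windows. The letters TCAAGGTCA, bound by oestrogen-related receptors, were in 0 of the 13 windows and in 0.423% of all, and the ETS letters CCGGAAGT were in 0 of the 13 and in 3.89% of all. The searched motifs do not overlap where they are marked above.

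All levels given are log2 ratios of a spot's signal to its block's median signal on the same array, so that 0 is the median spot. They come from 1 dye channel, taken here to be that of the heart RNA, which the deposited values do not settle. Some heart muscle spots were bright, such as Atp2a2, which averaged 6.65 on the infarcted arrays. Tested lung and airway spots also lay above the median spot, with mean levels of 3.85 (Scgb1a1), 2.75 (Sftpc) and 1.07 (Sftpa1). Other Sftpa1 spots with values lay below it. Spots of Dkkl1, Oaz3 and Prm3, genes known from testis, lay above it at 3.81, 2.95 and 2.31, and Amy2a5, of pancreas, at 2.515. The Lyzl1 spot, also of testis, lay below it at -0.22. They were picked after their values were seen, and genes of such tissues were not counted as a list. The channel was not tested further. If it was that of the reference, the differences below are not about heart RNA. Of 33600 spots, 21916 to 23655 had a value on an infarcted array and 19704 to 24819 on a sham control array. The 9 genes had 36 of 36 values on the infarcted arrays and 35 of 36 on the sham control arrays. Heart muscle genes could be followed less well than these enzymes. Of 15 heart muscle markers 14 were on the array but only 5 could be tested. Myl3, Mb, Actc1 (1 of 2 spots) and Atp2a2 had values on infarcted arrays but none on any sham control array. Their levels on the infarcted arrays averaged 7.05 (3 values), 7.07 (2 values), 6.26 and 6.65 (4 values each). Among spots whose signal passed 20000 on some array, 38 values were missing on the infarcted arrays and 190 on the sham control arrays. The part of these gaps in the results below was not tested.

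All 9 TCA enzyme genes had lower mean levels on the infarcted arrays than on the sham control arrays. The log2 fold changes (infarcted minus sham control) ran from -2.14 for Idh2 to -0.61 for Idh3a, with a median of -0.90. The infarcted and sham control arrays did not overlap for 6 genes, namely Idh2, Idh3a, Idh3b, Mdh2, Sdha and Sdhb. None of the 9 passed the test across all spots (limma, Benjamini-Hochberg adjusted p under 0.05), where the adjusted p ran from 0.117 to 0.458. With the unadjusted p of limma, 7 of the 9 were under 0.05, as were 2571 of the 20561 spots tested. In a whole heart, fewer cells of a type and less RNA per cell cannot be told apart.

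Against the whole array these counts read as follows. Of 20561 tested spots 0.700% passed with lower levels on the infarcted arrays. Groups that do not overlap, with infarcted arrays lower, made up 6.33% of the tested spots, and a negative fold change 56.8%. The 9 genes were bright, however, with mean levels from 3.13 to 6.15 over the 8 arrays, and in that range of levels 2066 spots were tested. There 3.92% passed with lower infarcted levels, 26.1% did not overlap with infarcted arrays lower, 87.3% had a negative fold change and 19.2% had a fold change below -1. The 9 genes had 0, 6, 9 and 4 in these classes, the last being Idh2, Idh3g, Sdha and Mdh2. The median fold change was -0.07 over all tested spots and -0.53 over the 2066 spots of the same range, with quartiles of -0.88 and -0.24. All 9 genes lay below that median, and 5 lay below the lower quartile. The lower end of this range is set by Idh3g alone, while 7 of the 9 genes lay above a level of 5, where lower values on the infarcted arrays were more frequent still. Non-overlapping groups, infarcted lower, made up 52.4% of the 374 spots from 5 to 6, against 4 of the 6 genes there, and 66.1% of the 59 spots above 6, where Mdh2 alone lay and did not overlap. At levels from 4 to 5 the share was 26.0%, with Idh3a not overlapping, and from 3 to 4 it was 11.7%, with Idh3g overlapping. The count of 6 of 9 is thus near the share of spots at the genes' own levels. The median fold change of spots from 5 to 6 was -0.85, with Cs, Ogdh and Sdhb above it and Idh2, Idh3b and Sdha below. Idh3a lay near the median of its range, -0.61 from 4 to 5. Mdh2 and Idh3g lay below theirs, -1.06 above 6 and -0.30 from 3 to 4. No excess can therefore be read from all 9 genes lying below the median of the wide range.

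**Figure D1:**
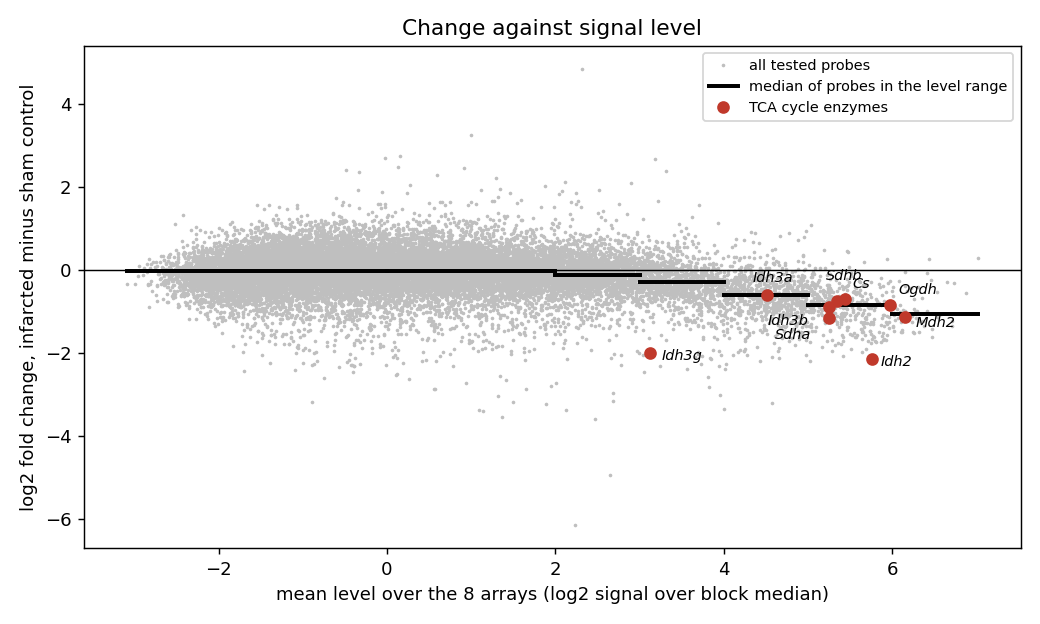
Log2 fold change (infarcted minus sham control) against the mean level over the 8 arrays, in log2 signal over the block median, for 20561 tested spots (grey), with black bars for the median of the spots in each level range and red points for the 9 TCA enzymes. The bars sink to -0.85 between levels 5 and 6 and to -1.06 above 6, and 7 of the red points lie close to them, while Idh2 at -2.14 and Idh3g at -2.005 lie well below.

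The median fold change was close to 0 for dim spots and went lower with brightness above a level of 2. It was -0.02 for levels below 0 and again from 0 to 2, -0.12 from 2 to 3, -0.30 from 3 to 4, -0.61 from 4 to 5, -0.85 from 5 to 6 and -1.06 above 6. The 99th percentile of the levels was 5.05 to 5.24 on the infarcted arrays and 5.65 to 6.31 on the sham control arrays. The values of the 9 enzymes under 2 scalings that even out this trend are given after the single genes.

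Cs, citrate synthase, catalyses the entry step of the cycle and is often used as a measure of mitochondrial content. Its level was 5.53, 5.50, 4.46 and 4.86 on infarcted replicates 1 to 4, against 5.83, 6.20, 6.11 and 5.04 on sham control replicates 1 to 4. The groups overlapped, since sham control replicate 4 lay below infarcted replicates 1 and 2. The fold change was -0.71 ± 0.34 (SE, limma adjusted p = 0.441), with a 95% interval from -1.47 to 0.05.

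Idh2, the NADP-dependent mitochondrial isocitrate dehydrogenase, supplies NADPH as well as 2-oxoglutarate. It stood at 2.70, 5.17, 5.59 and 5.30 on the infarcted arrays, against 7.03, 6.94, 7.13 and 6.21 on the sham control arrays. Every infarcted array lay below every sham control array, by at least 0.63, and infarcted replicate 1 lay far below the other infarcted arrays. The mean level was 4.69 ± 1.34 in infarcted hearts and 6.83 ± 0.42 in sham hearts (SD, n = 4 each). The fold change of -2.14 ± 0.57 (SE, limma adjusted p = 0.138) corresponds to 22.7% of the sham signal, with a 95% interval on the log2 scale from -3.42 to -0.86. Without infarcted replicate 1 the fold change was -1.48 (adjusted p = 0.12).

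Idh3a, Idh3b and Idh3g encode the subunits of the NAD-dependent isocitrate dehydrogenase, alpha being the catalytic subunit and beta and gamma the others. Idh3a stood at 4.17, 4.23, 4.24 and 4.18 on the infarcted arrays, against 4.73, 5.01, 4.62 and 4.88 on the sham control arrays. The groups were apart by 0.39, and the infarcted arrays differed little from each other (SD 0.036, against 0.17 in sham control). The fold change of Idh3a was the smallest of the 9, -0.61 ± 0.20 (SE, limma adjusted p = 0.225). Idh3b stood at 4.98, 4.52, 4.97 and 4.74 on the infarcted arrays, against 5.82, 6.04, 5.55 and 5.39 on the sham control arrays. Again no infarcted array reached a sham control array, and the fold change was -0.90 ± 0.23 (SE, limma adjusted p = 0.123), or 53.7% of the sham signal.

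The third subunit spread widely. Idh3g stood at 4.81, 0.24, 1.80 and 1.65 on the infarcted arrays, against 4.92, 1.68, 5.18 and 4.73 on the sham control arrays. Each group held both high and low arrays, with 1 high among 4 infarcted arrays and 1 low among 4 sham control arrays. Unscaled, the Idh3g spot read 11607, 614, 2560 and 1210 in infarcted hearts, against 20392, 1353, 19789 and 15905 in sham hearts. The fold change of -2.005 ± 1.00 (SE, limma adjusted p = 0.458) had a 95% interval from -4.23 to 0.22. It was -2.82 without sham control replicate 2 and -2.90 without infarcted replicate 1 (adjusted p = 0.191 and 0.248), and -1.38 without infarcted replicate 2 (adjusted p = 0.703).

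Ogdh is the first subunit of the 2-oxoglutarate dehydrogenase complex. It stood at 5.76, 6.27, 5.05 and 5.12 on the infarcted arrays, against 6.22, 6.55, 6.61 and 6.18 on the sham control arrays. Infarcted replicate 2 lay above sham control replicates 1 and 4, so the groups overlapped by a small margin. The fold change was -0.84 ± 0.30 (SE, limma adjusted p = 0.279). In unscaled signals the groups of Ogdh did not overlap, with 15085 to 36521 in infarcted hearts against 37764 to 64273 in sham hearts.

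Sdha, the flavoprotein subunit that oxidises succinate, stood at 4.71, 5.33, 4.23 and 4.41 on the infarcted arrays, against 5.81, 6.22, 5.87 and 5.39 on the sham control arrays. Infarcted replicate 2 came within 0.062 of sham control replicate 4, and the groups did not overlap. The fold change of Sdha was -1.15 ± 0.30 (SE, limma adjusted p = 0.119), or 44.9% of the sham signal. Sdhb, the iron-sulphur subunit that passes the electrons on, stood at 4.93, 5.02, 4.71 and 5.21 on the infarcted arrays, against 5.23, 6.15, 5.94 and 5.57 on the sham control arrays. The gap between the groups was 0.023, and the fold change was -0.76 ± 0.26 (SE, limma adjusted p = 0.243). In unscaled signals Sdha kept the groups apart, with 9240 to 19032 against 21946 to 48496, and Sdhb did not, with 21401 to 30257 against 23793 to 44775.

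Mdh2, which oxidises malate to oxaloacetate, stood at 5.99, 5.75, 5.46 and 5.47 on the infarcted arrays, against 7.22, 6.64 and 6.52 on sham control replicates 2, 3 and 4, while sham control replicate 1 had no value. The groups were 0.53 apart, and the fit used 4 infarcted and 3 sham control values. On sham control replicate 1 the Ogdh and Idh2 spots read 64273 and 60733 unscaled, close to the highest recovered signal of 65466. Why the Mdh2 value of that array was missing was not tested. The fold change of Mdh2 was -1.13 ± 0.28 (SE, limma adjusted p = 0.117), or 45.8% of the sham signal. Its 95% interval ran from -1.75 to -0.50. Of the 9 genes 4 kept their groups apart without any scaling (Idh2, Mdh2, Ogdh and Sdha). Of all spots at levels from 3.13 to 6.15, 15.2% showed this separation. These 4 genes lay above a level of 5, where the unscaled share was not counted, so no excess can be read from the 2 values.

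**Figure D2:**
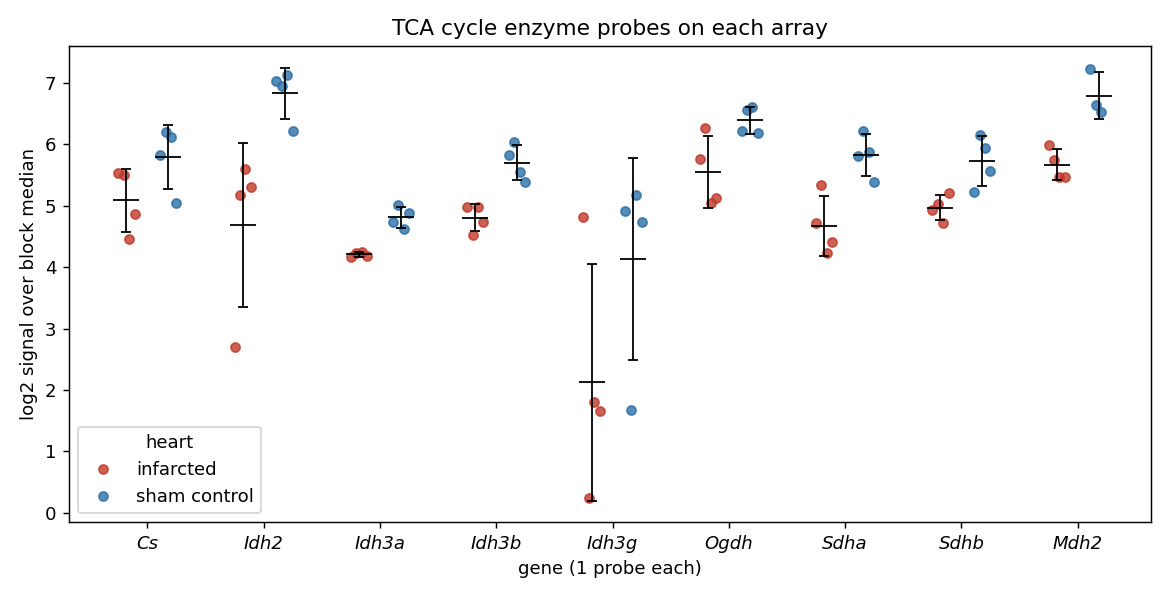
Level of each of the 9 TCA enzyme spots on every array, in log2 signal over the block median, for infarcted hearts (red, left) and sham control hearts (blue, right), with black bars for the mean and SD. Idh3a had the tightest infarcted group (SD 0.036), infarcted replicate 1 was low for Idh2 at 2.70, and Idh3g had both high and low arrays in each group.

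The size of these differences depended on how arrays were brought to 1 scale. Quantile normalization, which gives every array the same distribution of levels, left a median fold change of -0.10 over the 9 genes, and loess against the mean array, which removes a trend with level, left -0.07. The spots in the level range of the 9 genes then had medians of 0.03 and 0.04. After either step 5 of the 9 genes kept a negative fold change and 0 passed, with 1 unadjusted limma p under 0.05. Of all 20561 tested spots, 2078 were under 0.05 after quantile normalization and 2547 after loess, by the same p. Cs, Idh3a, Ogdh and Sdhb turned to positive values under both, at 0.11, 0.08, 0.03 and 0.08 after quantile normalization and at 0.16, 0.04, 0.16 and 0.09 after loess. Sdha stood at -0.38 and -0.33, Mdh2 at -0.22 and -0.14, and Idh3b at -0.10 and -0.07. Idh2 kept -1.40 ± 0.62 and -1.19 ± 0.53 (SE, limma adjusted p = 0.486 and 0.397), and Idh3g kept -1.60 and -1.69.

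**Figure D3:**
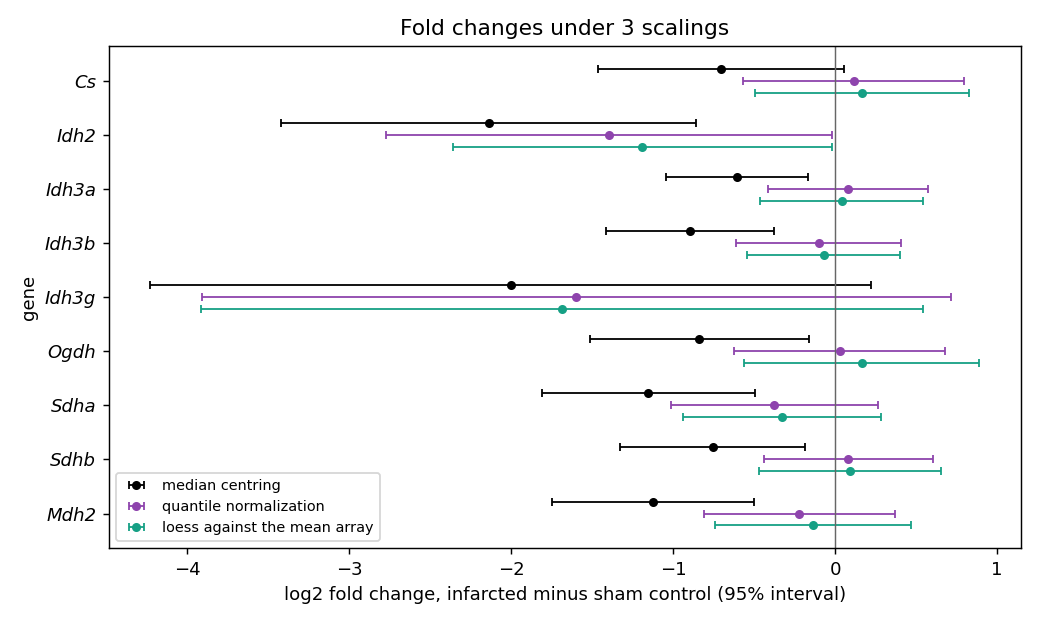
Log2 fold change (infarcted minus sham control) of the 9 TCA enzymes with 95% intervals, for arrays centred on their medians (black), after quantile normalization (purple) and after loess against the mean array (green). With centring 7 intervals lie below 0, and after the other 2 steps the interval of Idh2 alone stays below 0, by a small margin.

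The other enzymes of the mitochondrial cycle, with their complex II assembly factors, were dimmer spots, with mean levels of 2.50 to 3.29 on the infarcted arrays and 2.86 to 3.54 on the sham control arrays. Of 13 such genes 9 were on the array and tested, by 10 spots, and 0 passed in either direction. Of the 10 spots 6 had a negative fold change, and their median was -0.10, or 0.13 after quantile normalization and 0.12 after loess, where 1 of the 10 was negative. Fh1, fumarase, stood at -0.53 ± 0.24 (SE, limma adjusted p = 0.405), and a Dlst spot, for the succinyltransferase of the 2-oxoglutarate dehydrogenase complex, at -1.04 ± 0.69 (adjusted p = 0.598). That Dlst spot read 4.78, 4.72, 3.82 and 1.21 in infarcted hearts, against 4.36, 5.18, 4.82 and 4.33 in sham hearts, and the second Dlst spot gave 0.11. Suclg2, a subunit of succinyl-CoA ligase, stood at -0.30 ± 0.29, and Sdhaf2, which helps attach the flavin to complex II, at 0.17 ± 0.22. Named outside the rule, after their values were seen, the membrane anchors of complex II stood at -0.28 ± 0.45 (Sdhc) and 0.05 ± 0.93 (Sdhd), with 95% intervals of -1.28 to 0.71 and -2.02 to 2.12. The difference between the 9 genes and these enzymes was not tested, and the 2 lists lay at different levels.

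A list of cytosolic enzymes held Aco1, Idh1 and Mdh1, counterparts of the cycle's enzymes, with Acly and Me1, which are not. Of these 5 genes 3 could be tested and 0 passed. Their median fold change was -0.13, against -0.10 after quantile normalization and -0.11 after loess. Me1, cytosolic malic enzyme, stood at 2.75, 2.70, 2.46 and 2.70 on the infarcted arrays, against 3.68, 3.42, 3.63 and 3.38 on the sham control arrays. The groups did not overlap, the fold change was -0.88 ± 0.20 (SE, limma adjusted p = 0.0868), and it was -0.62 after quantile normalization and -0.57 after loess. Aco1 and Idh1, the cytosolic aconitase and isocitrate dehydrogenase, stood at -0.13 ± 0.21 and 0.06 ± 0.26. Mdh1, cytosolic malate dehydrogenase, was named outside the rule because it could not be tested. It had 5.61, 5.21, 5.31 and 5.23 on the infarcted arrays, against 6.67 and 6.44 on the only sham control arrays with a value.

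Among 19 genes that feed the cycle or form the malate-aspartate shuttle, 16 were tested by 18 spots and 0 passed. The median was -0.23, with 13 of 18 negative, but it was 0.13 after quantile normalization and 0.11 after loess, where 5 of 18 were negative. Got2 and Got1, the mitochondrial and cytosolic aspartate aminotransferases, stood at -0.85 ± 0.34 and -0.55 ± 0.24 (SE, limma adjusted p = 0.329 and 0.393), and at -0.07 and 0.30 after quantile normalization. Glud1, glutamate dehydrogenase, and Slc25a10, the dicarboxylate carrier, stood at -0.62 ± 0.31 and -0.48 ± 0.25.

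**Figure D4:**
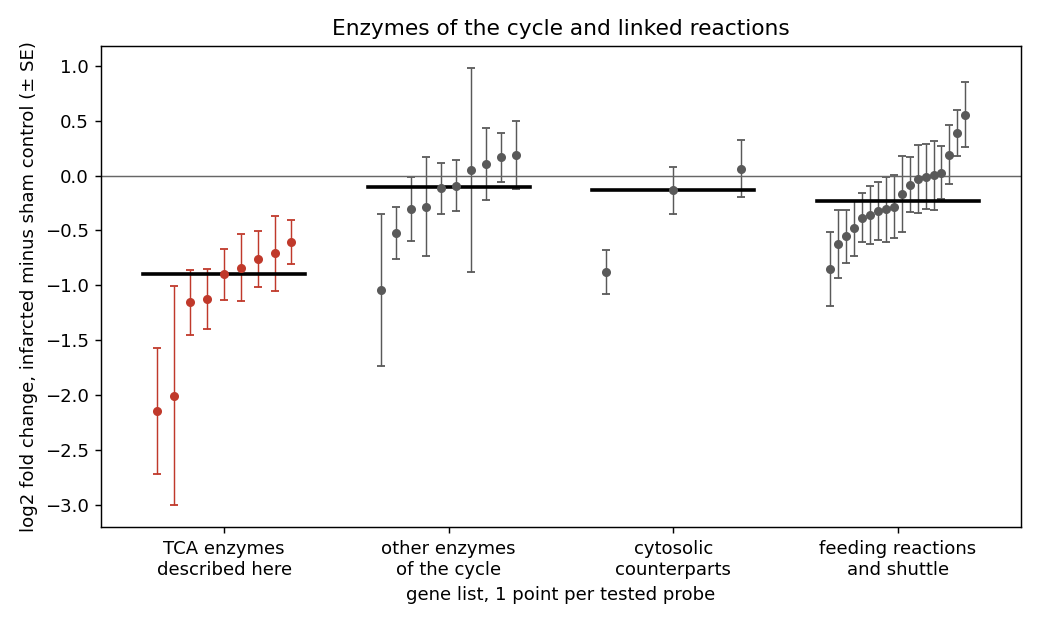
Log2 fold change (infarcted minus sham control) with its SE for each tested spot, with black bars for list medians. The lists are the 9 TCA enzymes (red), other enzymes of the cycle, cytosolic counterparts with Me1, and feeding reactions with the shuttle (grey). The medians are -0.90, -0.10, -0.13 and -0.23 with arrays centred on their medians, and -0.07, 0.12, -0.11 and 0.11 after loess, and 0 spots passed in any of the 4 lists.

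Among themselves, 6 of the 8 enzyme genes with values on all arrays had similar profiles, each centred on its own mean. The root mean square difference from the mean profile of the other 7 was 0.31 for Idh3b, 0.37 for Sdha and 0.40 to 0.47 for Idh3a, Sdhb, Ogdh and Cs, but 1.19 for Idh2 and 1.77 for Idh3g. Of 10796 other named spots with complete values, those closest over the 8 arrays to the mean profile of the 8 genes were Rnf19b (0.10), Hadhb (0.14), Uqcrb (0.15), Cpe (0.16) and Me1 (0.16), where the median of all was 0.67. The profile holds the difference between the groups, so the fold changes of these spots are a description with no test. Hadhb, of fatty acid oxidation, stood at -1.25 with arrays centred and at -0.39 and -0.32 after quantile normalization and loess. Uqcrb, of complex III, stood at -1.15, -0.22 and -0.17 in the same order, and Rnf19b, a ubiquitin ligase and a dimmer spot, at -1.24, -1.07 and -1.08.

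Markers of other cells were read beside these values. Of 15 spots for 13 macrophage and monocyte genes 14 had a positive fold change, while 56.8% of all tested spots had a negative one. Of these 15 spots 0 passed, and their median was 0.61. Their mean level over 14 complete spots was 0.99 to 1.49 on the infarcted arrays and 0.29 to 0.60 on the sham control arrays. Chosen after their values were seen, Gpnmb stood at 1.58 ± 0.31 (SE, limma adjusted p = 0.0512), the 2 Ms4a7 spots at 1.16 and 0.96, Fcgr3 at 0.97 and Adgre1 at 0.85. Of these Gpnmb, Fcgr3, Adgre1 and 1 Ms4a7 spot did not overlap between the groups. The share of all spots that did so with infarcted arrays higher was not counted. Gpnmb, Adgre1 and the other Ms4a7 spot lay below the block median on average in both groups. The brightest spots of the list, for C1qa, C1qb, C1qc and Lyz2, stood at 0.30, 0.49, 0.29 and -0.04. Heart muscle spots with values on all arrays, 6 in number and largely of Ttn, averaged 4.50 to 4.71 on the infarcted arrays and 3.52 to 4.88 on the sham control arrays. Of the 11 heart muscle spots tested, most of them of Ttn, 7 had a positive fold change and 0 passed. Their median was 0.27, or 0.73 after loess. The Ttn spots ran from -0.91 to 1.27, while Ckm stood at -0.69, Mybpc3 at -1.11, Ryr2 at 0.02 and Pln at 0.27. The untested spots of Tnnt2, Tnni3, Tnnc1, Myl2 and Actc1 with a sham control value all averaged lower on the infarcted arrays. They had 1 sham control value each, or 2 for Tnnt2. For 10 fibroblast genes the mean level was 1.80 to 2.13 on the infarcted arrays against 1.88 to 2.17 on the sham control arrays. For 7 endothelial genes it was 1.72 to 2.28 against 1.46 to 2.32. Of 3 lung and airway spots all had a negative fold change, with a median of -1.19 and mean levels of 1.88 to 2.17 on the infarcted arrays and 1.77 to 3.65 on the sham control arrays. Of 3 erythroid spots 1 had a negative fold change. This Hba-a1 spot, for alpha globin, read 5.27, 5.34, 4.63 and 5.02 on the infarcted arrays, against 6.27, 7.33 and 6.81 on sham control replicates 1, 2 and 4. Its groups did not overlap, and its fold change was -1.74 ± 0.32 (SE, limma adjusted p = 0.0505), or -0.80 after loess. The 3 skeletal muscle spots were all positive, with a median of 0.47, and 0 passed. The part of the cell composition in the values of the enzymes was not tested. Whether the lung and airway signals came from the heart RNA or the reference RNA was not tested either.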

How the data were processed

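RNA of 4 infarcted and 4 sham control hearts was measured on 2-colour arrays of oligonucleotides, per the labels. The submitters deposited log2 values. Within each of 48 blocks of 700 spots every value became a whole number, within 0.001, after multiplication of its antilog by 1 constant per block and array. The deposited log2 values are therefore read as 1 channel's signal over the block median. A ratio to the reference had been assumed, and the planned test was kept. No source used here states the scanner software or how background and poor spots were handled. Recovered signals ran from 42 to 65466. The number of arrays limits the precision.

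Gene symbols came from the platform's annotation. Arrays were centred on their medians, and probes with at least 3 values in each group were tested singly by lmFit and eBayes (limma 3.58.1, R 4.3.3), with Benjamini-Hochberg adjustment over all 20561 tested probes. Fold changes are infarcted minus sham control. Separate hearts were hybridised per the labels, and the arrays of a group correlated at 0.958 or less, so none was a copy. The fit was tried on simulated data with independent noise and no trend with level. That trial cannot tell how the fit behaves under the trend described above. The 9 genes were all described. In the 3 lists of linked enzymes any gene past the threshold and up to 4 with the smallest p were named. Marker lists were read as counts and ranges, and likeness was the root mean square difference of centred profiles. The members and lists were chosen with earlier results of these data known. Other normalizations, filters, gene means, the replicate block and arrays left out were tried as alternatives.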

Additional observations from a re-analysis of the deposited data

Results flagged for a closer look

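In groups of 4 arrays, a single array far from the others was looked for with Dixon's ratio of gap to range in 79 groups of the named spots, and 3 passed the 95% critical value. Chance marks about 5% of groups. The Idh2 spot had 2.70 on infarcted replicate 1, where the other infarcted arrays had 5.17 to 5.59. The Idh3g spot had 1.68 on sham control replicate 2, where the other sham control arrays had 4.73 to 5.18. The Me1 spot had 2.46 on infarcted replicate 3, where the other infarcted arrays had 2.70 to 2.75. What set these arrays apart was not tested.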

How the results depend on the processing

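Over 18 alternatives the 9 genes gave 160 fold changes, of which 152 kept their direction and their side of the threshold, 0 passed and 8 changed sign. Filters on the number of values, the eBayes trend and gene means return the same fold change for a gene with 1 spot. The replicate block does so where all values are present. The 152 therefore include fold changes that could not move, and their number does not measure how stable the result was. Mdh2 had too few values for 2 of the alternatives, with complete probes and without the 2 sham control arrays with the fewest values. The lowest adjusted p (limma) was 0.0532, for Sdha without sham control replicate 4. The changes of sign were those of Ogdh (0.0264), Idh3a (0.0782), Sdhb (0.0809) and Cs (0.113) after quantile normalization, and of Ogdh (0.163), Idh3a (0.0395), Sdhb (0.0909) and Cs (0.165) after loess. The median of the 9 genes, -0.90, moved to -0.103 and -0.0719 under these 2 settings, and ran from -1.08 to -0.78 with single arrays left out. The cause was not tested.

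Over all probes 157 passed, 13 higher and 144 lower in infarcted hearts. The number was 35 after quantile normalization, 97 after loess, 91 after scale normalization, 99 with genes in place of probes and 1225 without the 2 sham control arrays with the fewest values. It was 50 with signals scaled by the array median, an alternative chosen after seeing the data. With single arrays left out, which asked for 2 values in the group left with 3 arrays, it ran from 3 without infarcted replicate 3 to 732 without sham control replicate 4. With the replicate block 1 probe passed, and the median of the 9 genes was -0.90. The deviations of same-numbered arrays correlated at 0.035, 0.313, -0.0915 and -0.199, and those of differently numbered arrays at -0.1985 to 0.3319. Same-numbered arrays thus did not stand out as a set. These correlations cannot tell whether some of them were handled together.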
